A study of Drosophila melanogaster with 3 samples.

Results

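The Antennapedia complex is the cluster of homeobox genes on chromosome arm 3R of Drosophila melanogaster, and binding of the protein Mabi (CG15479) was described across its 9 members lab, pb, zen, zen2, bcd, Dfd, Scr, ftz and Antp. The members were taken by gene symbol, 9 of 13968 protein-coding genes of the annotation. A peak belonged to the complex when its summit, the deposited position of its highest point, lay in a member's gene model, between members, or within 10 kb of the outermost models, which gave the region chr3R:6651427-7009228 (dm6). This region of 358 kb, 0.260% of the chromosome arms, held 59 peaks, 1.17%, of the optimal list by irreproducible discovery rate (IDR, the authors' filter for peaks whose ranks agree between replicates), and 4990 peaks of that list lay outside it. It also held 250 of the 30000 pooled peaks, and 253, 237 and 250 of the 30000 peaks listed for replicates 1, 2 and 3.

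The data came from chromatin immunoprecipitation and sequencing of whole embryos of both sexes aged 0 to 4 h. The single group held 3 biological replicates of a transgenic line, CG15479-GFP, that stably expresses Mabi with GFP fused to its C-terminus. The description names an anti-GFP antibody while the antibody field names CG15479. With 1 group there was no condition to compare, so no p-value is given, and the comparisons below set the complex beside the remaining genes and peaks. The fragments of sonicated chromatin were 200 to 800 bp long, the read depth is unknown here, and the replicate lists were all made against 1 and the same control file. An immunoprecipitation from embryos without the tagged protein was not analysed here. Each value is a mean over all cells of embryos that span several stages, so binding in few cells and weak binding in many cannot be told apart.

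Genes of the complex pattern the head and thorax of the embryo along its long axis. Mothers deposit bcd mRNA, whose product Bicoid forms a gradient from the anterior end; zen specifies the dorsal tissue amnioserosa, ftz is a pair-rule gene expressed in stripes, and lab, pb, Dfd, Scr and Antp are the homeotic genes that give segments of the head and thorax their identity. The homeotic genes are controlled by long upstream, intronic and intergenic enhancers, by insulators and by Polycomb response elements, which recruit Polycomb proteins and hold a gene's silent state. Mabi is known for its part in cell death during early development.

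The sequences around the summits on which the results turn are given first, each as 201 bases centred on an IDR summit, on the plus strand of dm6, read from the RefSeq copy of genome Release 6. Capitals mark every match, on either strand, of the 12 short motifs described further on, and a match is only a run of letters, not a measured binding site. The first and the second window hold the strongest peaks of the complex, both between ftz and Antp, and the second carries 4 copies of GCCAT or its reverse complement ATGGC near its higher-coordinate end. The next window is the peak nearest the microRNA gene mir-10, and the one after it lies between zen and bcd and has matches of the Zelda and Caudal motifs. The last windows stand before the start sites of zen, ftz and Dfd, and were chosen because these members had the strongest promoter peaks.

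ftz-Antp interval, chr3R:6888906-6889106: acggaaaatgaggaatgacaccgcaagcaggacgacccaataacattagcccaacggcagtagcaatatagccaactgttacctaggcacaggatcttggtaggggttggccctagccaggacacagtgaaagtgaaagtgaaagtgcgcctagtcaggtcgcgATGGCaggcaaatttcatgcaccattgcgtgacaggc

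ftz-Antp interval in lncRNA:CR44931, chr3R:6881789-6881989: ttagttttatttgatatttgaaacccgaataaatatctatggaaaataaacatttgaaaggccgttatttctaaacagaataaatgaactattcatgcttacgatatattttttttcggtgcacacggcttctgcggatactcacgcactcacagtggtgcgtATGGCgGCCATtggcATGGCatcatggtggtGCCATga

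Dfd-Scr interval by mir-10, chr3R:6810625-6810825: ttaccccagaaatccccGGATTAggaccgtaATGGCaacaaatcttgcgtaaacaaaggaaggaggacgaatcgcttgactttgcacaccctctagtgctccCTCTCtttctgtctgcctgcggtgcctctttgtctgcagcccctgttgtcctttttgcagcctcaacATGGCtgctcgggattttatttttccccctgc

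zen-bcd interval, chr3R:6755550-6755750: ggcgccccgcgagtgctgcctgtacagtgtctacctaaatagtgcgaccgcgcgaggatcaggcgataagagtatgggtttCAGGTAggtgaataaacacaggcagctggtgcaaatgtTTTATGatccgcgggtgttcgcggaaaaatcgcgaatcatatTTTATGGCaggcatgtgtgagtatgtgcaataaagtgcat

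zen promoter, chr3R:6754240-6754440: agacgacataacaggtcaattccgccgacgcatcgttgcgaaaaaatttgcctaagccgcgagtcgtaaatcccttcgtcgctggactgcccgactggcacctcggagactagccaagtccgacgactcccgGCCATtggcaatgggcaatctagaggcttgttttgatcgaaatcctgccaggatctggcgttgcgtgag

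ftz promoter, chr3R:6863870-6864070: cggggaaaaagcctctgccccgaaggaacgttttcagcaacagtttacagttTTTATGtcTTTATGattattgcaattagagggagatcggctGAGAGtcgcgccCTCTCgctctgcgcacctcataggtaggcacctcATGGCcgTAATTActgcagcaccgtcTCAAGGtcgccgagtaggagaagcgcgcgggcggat

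Dfd promoter, chr3R:6791498-6791698: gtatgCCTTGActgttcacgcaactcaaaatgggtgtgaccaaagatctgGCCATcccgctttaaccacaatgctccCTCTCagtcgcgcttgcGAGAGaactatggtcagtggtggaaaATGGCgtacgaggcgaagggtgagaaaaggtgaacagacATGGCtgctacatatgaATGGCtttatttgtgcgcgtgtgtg

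The complex was dense in peaks. Its 59 IDR summits came to 1.65 per 10 kb (95% exact Poisson interval 1.26 to 2.13, counting error only). The density was 0.387 per 10 kb over 3R and 0.367 per 10 kb over all chromosome arms, and the ratio to all arms was 4.49. In the pooled list, which reaches much weaker peaks, the ratio was 3.20, and in replicates 1, 2 and 3 it was 3.24, 3.04 and 3.20. Of the pooled peaks in the region, 23.6% had entered the IDR list, against a background of 16.8% of all pooled peaks. When the arms were tiled with 380 windows of the region's length, on a fixed grid not placed by genes, the median window held 13 IDR summits. The arms include the Y chromosome, whose windows held no IDR summit. The highest count, 63, was in a window that itself overlaps the complex, and the highest among the 378 windows that do not was 44.

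**Figure D1:**
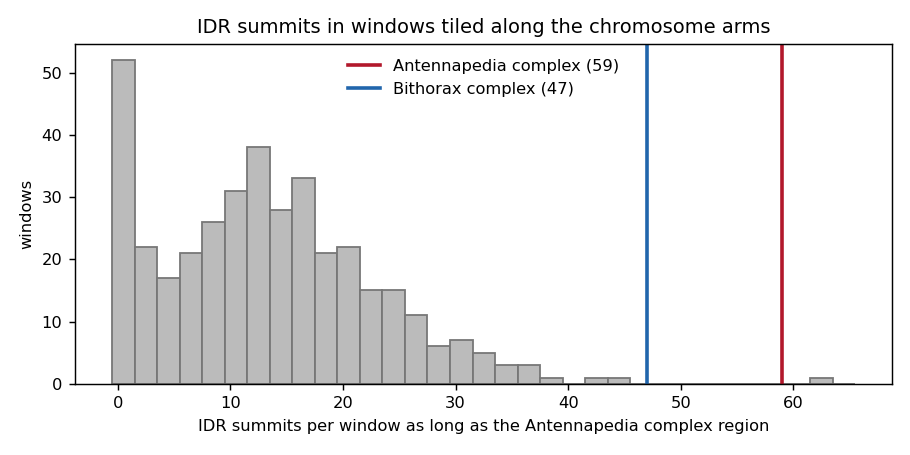
Number of IDR summits (horizontal axis) in windows of the complex region's length tiled along the chromosome arms, with the number of windows on the vertical axis. Vertical lines mark the Antennapedia complex, with 59 summits, and the Bithorax complex region, with 47; the window furthest to the right, with 63, overlaps the Antennapedia complex.

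The complex held 1.17% of all IDR peaks, and a larger share of the strongest 500 and 1000. It held 11 of the strongest 500 (2.20%) and 17 of the strongest 1000 (1.70%). Its share of the strongest 250, with 3 peaks (1.20%), was close to that of the whole list, and it held none of the strongest 100. The median deposited signal of its IDR peaks was 545, or 1.15 times the median of the whole IDR list. At the edges of the filters, the weakest IDR peak of the complex had a signal of 297, and the strongest of its 191 pooled peaks outside the IDR list, at the lower-coordinate end of bcd, had 287. Beyond the lower end of the region the nearest IDR summit was 147 kb away, and beyond the upper end it was 20.2 kb away. The last summit of the region stood at chr3R:7000990, upstream of Antp, and the first inside lab, at chr3R:6664517.

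**Figure D2:**
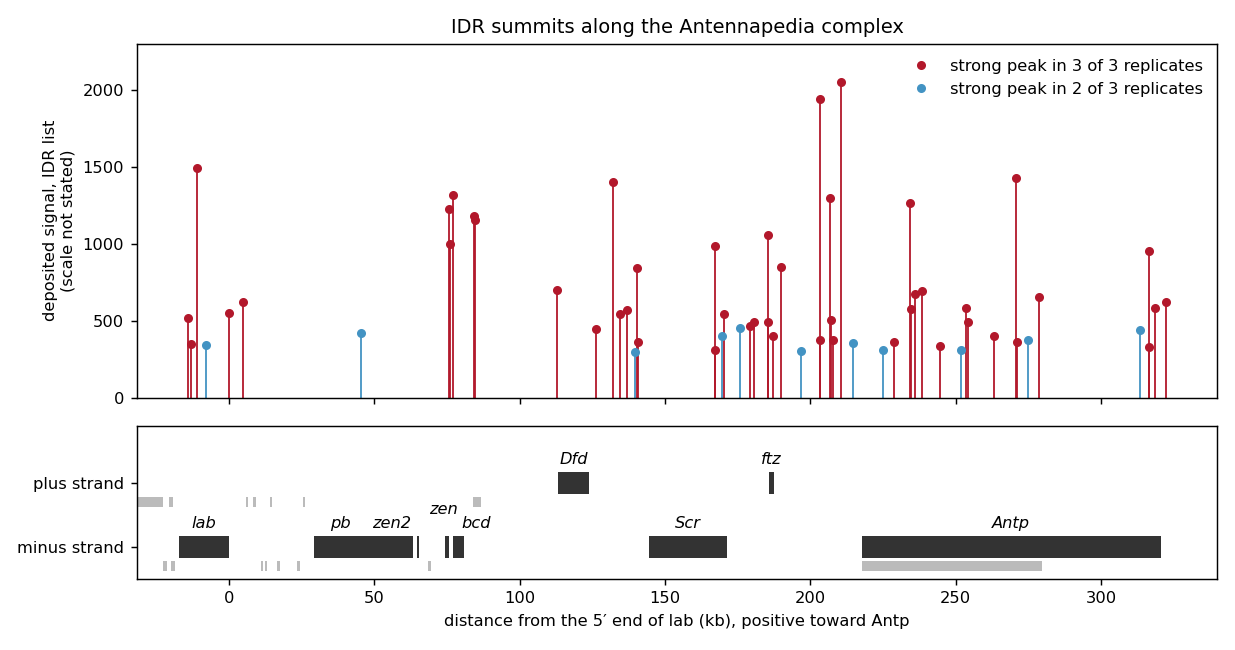
Upper panel: deposited signal of the 59 IDR summits (vertical axis, scale not stated) against distance from the 5′ end of lab in kb; red marks summits matched by a strong peak in 3 replicates and blue those matched in 2. Lower panel: gene models of the 9 members in black and other protein-coding genes in grey, by strand; the tallest summits stand between ftz and Antp, and pb, zen2 and the body of Dfd lie in stretches nearly free of them.

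The replicates shared most of these peaks. An IDR peak was called matched in a replicate when at least 50% of either peak overlapped one of that replicate's strongest peaks, as many as the IDR list holds. Of the 59 peaks, 48 were matched in all 3 replicates (81.4%, 95% Wilson interval 69.6 to 89.3), against a background of 71.2% over all IDR peaks, and the other 11 were matched in 2. The peaks matched in all 3 had signals from 313 to 2053 with a median of 584, and those matched in 2 had signals from 297 to 455 with a median of 355. The numbers matched were 54, 57 and 55 in replicates 1, 2 and 3. When every peak of the replicate lists was allowed, 58 of 59 were matched in all 3 replicates, with a background of 98.1%, and the exception was a peak in an Antp intron at chr3R:6903472, also inside lncRNA:CR43252, with a signal of 312 and no overlapping peak in replicate 1. Peaks were matched as whole intervals, so neighbouring summits could share the same replicate peak. The summit of signal 313 shared its replicate peaks with a stronger neighbour of signal 987. With replicate summits required within 100 bp, 37 of the 59 were matched in all 3 replicates. Since the IDR list was itself made from the replicates, the matching describes the peaks and does not test them.

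A promoter peak was an IDR summit within 1000 bp of any annotated transcription start site of a gene. By this measure 6 of the 9 members had one, against a background of 18.4% of all protein-coding genes, and in the pooled list all 9 had one, against 56.6%. All 9 also had one in each replicate list, where the backgrounds were 53.5%, 56.3% and 56.0%. To compare replicates, each deposited signal, which is the authors' own value, was divided by the median signal of its list and is called the relative signal here. The 6 members with an IDR promoter peak had mean relative signals from 3.62 to 8.27, and pb, zen2 and bcd had 1.04 to 1.46. These ranges follow in part from the IDR filter, which selects strong peaks.

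The maternal gene bcd had no IDR promoter peak. Its strongest pooled promoter peak, 134 bp upstream of the start site, had a signal of 157 and was number 11628 of 30000. In replicates 1, 2 and 3 the relative signal was 0.97, 1.45 and 0.69 (1.04 ± 0.38, SD, n = 3), and the peak was number 15583, 8171 and 24445 of the 30000 in each list. The nearest IDR summit stood 3.39 kb upstream, at Ama, the gene of the cell adhesion protein Amalgam.

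Of the zen pair, zen had the strongest promoter peak among the members and zen2 had none in the IDR list. The peak of zen, 146 bp upstream of its start site at chr3R:6754023-6754980, had a signal of 1224 and was number 417 in order of signal in the IDR list. Its relative signal was 7.27, 7.49 and 10.1 in the 3 replicates (8.27 ± 1.55, SD). A second IDR summit in the same interval, 359 bp upstream, had a signal of 998. A summit stronger than both, 1456 bp upstream of the start site, is described with the intervals. The divergent duplicate zen2, whose function is not established, had a strongest pooled promoter peak of signal 184, 761 bp upstream, with relative signals of 1.80, 0.83 and 1.59 (1.40 ± 0.51, SD, n = 3), and its nearest IDR summit was that at zen, 10.2 kb away. The values of the 2 genes did not overlap in any replicate.

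The pair-rule gene ftz had the second strongest promoter peak. The summit lay 354 bp upstream of the start site, just before the gene, where the zebra element that drives its stripes is known to lie, and a second IDR summit of signal 495 lay 154 bp upstream in the same interval. The first had a signal of 1060 and was number 578 in the IDR list. Its relative signal was 7.05, 6.05 and 8.32 (7.14 ± 1.14, SD, n = 3), a range that overlapped that of zen, although zen was the higher in each of the 3 replicates. The sequence around the first summit, printed above, has matches of 5 of the 12 motifs, the Caudal and the GAGA factor motif among them. A further IDR summit of signal 401 lay in the 3′ UTR of ftz, at chr3R:6865907.

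Among the homeotic genes, Dfd, which specifies the maxillary and mandibular segments, had the strongest promoter peak. Its summit 238 bp upstream had a signal of 701, number 1309 in the IDR list, and relative signals of 5.28, 3.38 and 5.52 (4.73 ± 1.17, SD, n = 3), of which replicate 2 was the lowest. No IDR summit lay within the gene model of Dfd, and the next one after its promoter was 13.4 kb away.

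The gene lab, expressed in the intercalary segment and the midgut, had a promoter peak 77 bp upstream of its 5′ start site, with a signal of 553, number 1972. Its strongest promoter peak had relative signals of 3.89, 3.51 and 4.37 (3.92 ± 0.43, SD, n = 3); in replicate 1 the strongest was instead at the internal start site, 74 bp downstream of it. A far stronger summit lay in a lab intron, at chr3R:6667479, with a signal of 1492, number 250. This intronic peak had relative signals of 9.15, 9.64 and 11.2 (SD 1.09, n = 3), above those of the promoter in every replicate.

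The gene pb, needed for the mouthparts of the adult, differed from its neighbour lab. The IDR summit nearest its start site was 12.3 kb away, at zen, and its strongest pooled promoter peak had a signal of 202, number 8231 of 30000, with relative signals of 1.22, 1.16 and 2.01 (1.46 ± 0.48, SD, n = 3). Its gene model of 34.3 kb held 1 IDR summit, in an intron, with a signal of 421.

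The gene Scr, which specifies the labial and first thoracic segments, had 2 IDR summits at its internal start site, used by 4 of its 5 annotated transcripts. The stronger, 247 bp upstream of that site, had a signal of 545, number 2018, and the strongest promoter peak had relative signals of 3.54, 3.75 and 3.57 (3.62 ± 0.11, SD, n = 3). In replicate 1 this strongest peak was the one 391 bp downstream. No IDR summit lay within 1000 bp of the 5′ start site, 1229 bp from the nearest. An intronic summit at chr3R:6845756 was stronger than the promoter peaks, with a signal of 987.

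The gene Antp, which gives its name to the complex and specifies the second thoracic segment, had its promoter peaks at the internal start site at chr3R:6932840, used by 6 of 12 annotated transcripts. The stronger IDR summit, in the 5′ UTR 719 bp downstream, had a signal of 582, number 1795. The strongest promoter peak had relative signals of 3.68, 4.42 and 4.47 (4.19 ± 0.44, SD, n = 3), and in replicate 2 it was the summit 163 bp upstream. The start site at the 5′ end of the gene model had no IDR summit within 1000 bp, and the nearest was 1762 bp upstream. Over the 3 replicates the ranges of lab, Scr and Antp overlapped; within replicates, Antp was above Scr in all 3, and lab changed its place between them. Dfd was above lab, Scr and Antp in replicates 1 and 3 and below them in replicate 2. The order zen above ftz, and both above lab, Scr and Antp, held in each replicate.

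**Figure D3:**
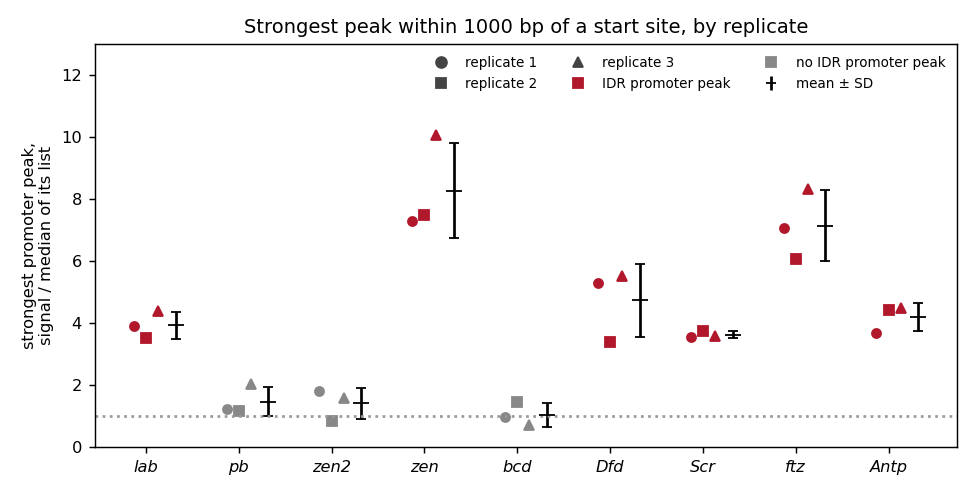
Relative signal (deposited signal over the median of its list) of the strongest peak within 1000 bp of a start site of each member, in replicates 1 to 3, with mean ± SD over the 3; red members have an IDR promoter peak and grey ones do not, and the dotted line is the list median. The points of zen and ftz, between 6.05 and 10.1, lie above all points of lab, Scr and Antp, between 3.51 and 4.47.

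Most of the summits inside members were in Antp. Its gene model of 103 kb held 19 IDR summits, 1.85 per 10 kb, and of the 13968 protein-coding genes only jing, with 20, held as many or more. The median was 1 over the 292 genes within a factor of 2 of its length. The annotated gene CG46458 lies wholly inside Antp and holds 15 of these summits, so they cannot be assigned to one gene by position. All but 1 of the Antp summits outside the promoter and 5′ UTR were intronic, and the exception was in the 3′ UTR. The strongest, at chr3R:6949368, had a signal of 1430 and relative signals of 7.36, 10.3 and 9.88 (9.17 ± 1.58, SD, n = 3). The next, at chr3R:6912899, had a signal of 1264 and relative signals of 7.86, 8.55 and 8.44 (8.29 ± 0.37, SD, n = 3). The summits were not spread evenly, since a stretch of 34.9 kb inside Antp held none in the IDR list and 27 in the pooled list. The models of lab and Scr held 4 IDR summits each, those of pb and ftz 1 each, and those of zen, zen2, bcd and Dfd none, where 13.1% of all protein-coding genes held at least 1.

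Most of the 10 strongest peaks of the complex lay in introns or between members, away from protein-coding start sites. Some of these lay close to start sites of lncRNA genes. The interval of 30.0 kb between ftz and Antp held 9 IDR summits, 3.00 per 10 kb, among them the 2 strongest of the complex. The strongest, at chr3R:6888543-6889342, had a signal of 2053, number 102 in the IDR list, and relative signals of 13.3, 13.7 and 13.6 (13.5 ± 0.24, SD, n = 3). The second, at chr3R:6881557-6882207 inside lncRNA:CR44931, had a signal of 1941, number 121, and relative signals of 11.4, 14.0 and 13.1 (12.8 ± 1.31, SD). These values overlapped in replicate order: the first was the higher in replicates 1 and 3 and the second in replicate 2. In all 3 replicates both lay above every other peak of the complex plotted with them. Another strong summit of the interval, of signal 1300, lay 203 bp from the start site of the same lncRNA.

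Between Dfd and Scr, 7 IDR summits lay in 20.7 kb. The strongest, of signal 1401 and number 304, was 1143 bp from the hairpin of mir-10, a microRNA of the Hox clusters, and 94 bp from the start site of lncRNA:CR45915. Its relative signals were 10.2, 8.58 and 9.26 (9.36 ± 0.83, SD, n = 3). The other microRNA gene of the complex, mir-993, had no IDR summit within 13.2 kb. In the interval of 1.65 kb between zen and bcd there were 3 IDR summits, 2 of them promoter peaks of zen. The other, which was the strongest, at chr3R:6755402-6755965, had a signal of 1319 and relative signals of 9.46, 7.52 and 9.41 (8.80 ± 1.10, SD, n = 3). The sequence around it, printed above, is the one with the Zelda and Caudal matches. Between Scr and ftz there were 5 summits in 14.3 kb, those of the ftz promoter included.

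**Figure D4:**
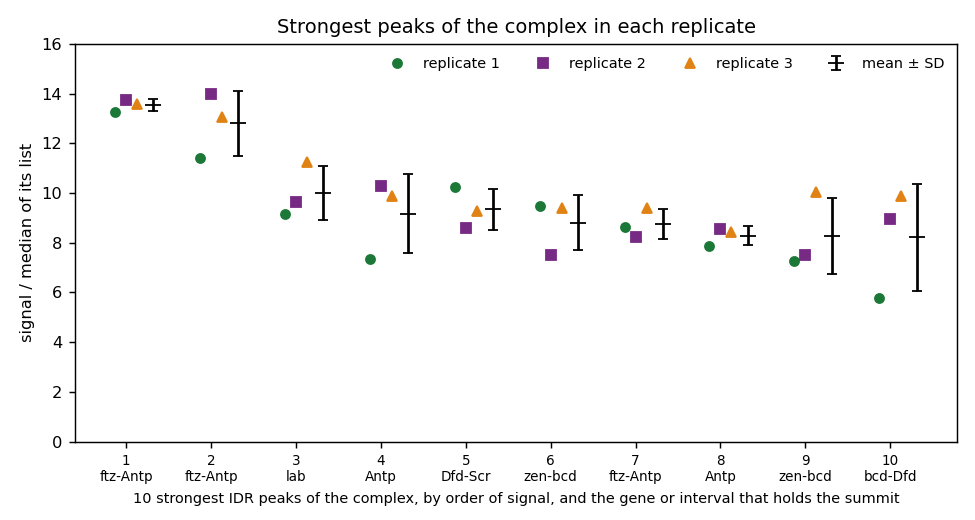
Relative signal of the 10 strongest IDR peaks of the complex, in order of deposited signal from left to right, in replicates 1 to 3, with mean ± SD over the 3; each is labelled with the gene or the interval that holds its summit. The 2 peaks at the left, both between ftz and Antp, lie between 11.4 and 14.0 in every replicate, and the tenth, at Ama, has the widest spread, 8.21 ± 2.15.

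By position, 11 of the 59 summits (18.6%) lay within 500 bp of a protein-coding start site, where 42.6% of all IDR summits lay. Introns held 23 (39.0% against 35.1%), intergenic sequence 14 (23.7% against 15.1%) and genes without a protein product 8 (13.6% against 2.75%). The region is rich in annotated noncoding genes, and 3 of these 8 summits lay in lncRNA:CR42651. No summit lay in a coding exon, where 1.96% of all IDR summits lay, and a count of 0 in 59 leaves a share of up to 6.11% within the 95% Wilson interval. In 8 intervals 2 summits were listed side by side, 199 to 231 bp apart; over all IDR intervals the closest spacing was also 199 bp and the median 204 bp.

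Other genes lie among the members. Of the 15 other protein-coding genes of the region 2 had an IDR promoter peak, against a background of 18.4% of all protein-coding genes. They were Ama with a signal of 1179 and the cuticle gene Edg84A with 625, the latter 953 bp from its start site. In the pooled list 7 of the 15 had a promoter peak, against a background of 56.6%. None of the 7 Ccp84A genes, a family of cuticle proteins between lab and pb, had an IDR promoter peak, and 1 had a pooled one. The longest stretch of the complex without an IDR summit, 40.5 kb, held this family, and the stretch of 30.3 kb after it held the 5′ end of pb, zen2, CG34297 and zen. Of all 45 other genes of the region, protein-coding and noncoding, 10 had an IDR promoter peak, Ama and Edg84A included. Among the noncoding genes with a promoter peak, where the background was 11.7% of annotated noncoding genes, lncRNA:CR42651 had a signal of 572, lncRNA:CR45900 had 491 and lncRNA:CR45559 had 355. A promoter peak of signal 620 lay at lncRNA:CR45899, beyond the 5′ end of Antp, and one of 842 lay 860 bp from tRNA:Lys-TTT-2-1, a lysine tRNA gene between Dfd and Scr. The peaks of lncRNA:CR45593 were those counted at Ama.

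The Bithorax complex, which holds the homeotic genes Ubx, abd-A and Abd-B of the posterior thorax and abdomen, is the locus most like the Antennapedia complex. Its region, taken in the same way as chr3R:16646623-16982236, held 47 IDR summits, 1.40 per 10 kb (95% exact Poisson interval 1.03 to 1.86), so the intervals of the 2 complexes overlapped. In the other lists the Bithorax complex was the denser, at 7.18 against 6.99 pooled peaks per 10 kb, and at 7.39 against 7.07, 6.73 against 6.62 and 7.54 against 6.99 in replicates 1, 2 and 3. No tiled window clear of the Antennapedia complex and as long as it held 47 or more. The fixed grid of tiles split the Bithorax complex region between windows that held 32 and 34, so the tiles do not show the highest count that a freely placed window would reach. Its IDR peaks had a median signal of 489, 1.03 times the list median, and 37 of the 47 were matched in all 3 replicates. Abd-B, with a signal of 490, and Ubx, with 439, had IDR promoter peaks, and abd-A had none. In the IDR list both promoter signals were below those of the 6 Antennapedia complex members with a promoter peak. The replicates did not all keep this order. In replicate 2 the relative signal of Abd-B was 3.98, above Dfd (3.38), lab (3.51) and Scr (3.75) and below Antp, ftz and zen. In replicates 1 and 3 Abd-B had 3.39 and 2.59, below all 6.

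The genes that act with the complex were counted from lists of known regulators and targets, against the background of 18.4%. Of 15 regulators of segmentation, which set where the homeotic genes are expressed, 12 had an IDR promoter peak, led by the pair-rule genes hry with a signal of 3716 and run with 1417 and the terminal gap gene tll with 2793, and kni, eve and ftz-f1 had none. Of 15 genes known as targets of the homeotic proteins, Zen or Bicoid, 12 had one, led by dpp with 1217, pnr with 855 and ush with 755, and ems, tup and tsh had none. These lists share hb, gt and Kr, and tsh is also among the cofactors. Of 12 Polycomb and trithorax group regulators, which maintain homeotic expression, 8 had one, led by trx with 2003, Sfmbt with 1730 and ph-p with 1191. Of 4 Hox cofactors only hth, which brings the cofactor Exd into the nucleus, had one, with a signal of 4257, and exd, tsh and tio had none.

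The 201-base windows around the summits were searched for 12 short motifs, each on both strands, named for a factor known to bind such letters. They were CAGGTA (Zelda), GAGAG (GAGA factor), TAATTA (homeodomain core), TAATCC (Bicoid), TTTATG (Caudal), TCAAGG (Ftz-F1), TGATTTA (Hox with Exd), GCCAT (Pho), CACGTG (E-box), TTTTTTA (Hunchback), TGACGT (CRE) and TATCGAT (DREF). The comparison windows were those of all IDR peaks, which include the 59, and windows of the same length tiled along the arms. The windows of the complex had a GC content of 47.0%, against 44.6% over all IDR windows and 42.1% in the tiles, and 5 of the 59 overlapped the next. Pho, the Polycomb group protein whose motif is searched here, binds DNA at Polycomb response elements.

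The Pho letters GCCAT occurred in 36 of the 59 windows (61.0%, 95% Wilson interval 48.3 to 72.4), against 32.2% of all IDR windows, 35.2% of tiles over the arms and 35.7% of tiles inside the complex region. The share was 66.0% at the Bithorax complex. Away from promoters, 29 of 48 windows of the complex had it (60.4%), against 34.7% over all IDR peaks. With 50 bp to either side of the summit the shares were 37.3% and 18.4%, and with 200 bp they were 81.4% and 52.7%. Of the 10 strongest summits of the complex, 7 had a match in their window and 3 had none. Of the promoter windows printed above, that of Dfd has 4 matches and those of zen and ftz have 1 each.

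CAGGTA, the letters of the early activator Zelda, were in 9 of the 59 windows (15.3%), against 13.2% of all IDR windows and 4.63% of tiles, so that the complex was close to the IDR list as a whole. GAGAG was in 40.7% against 35.3% and 21.6%, the latter shares being those of all IDR windows and of tiles. TTTATG, the letters of the posterior activator Caudal, was in 32.2% (95% Wilson interval 21.7 to 44.9), against 18.4% and 20.2%, and against 22.2% of tiles inside the complex region, which lies within that interval; with 200 bp to either side the shares were 39.0%, 33.2% and 35.6%. TGATTTA was in 10.2%, against 3.74%, 5.42% and 7.30% of tiles inside the complex region, which rests on 6 windows. The homeodomain core TAATTA was in 2 of the 59 windows (3.39%), against 8.48% of all IDR windows, 12.5% of tiles and 14.7% of tiles inside the complex region. With 200 bp to either side it was in 20.3%, against 16.3% of IDR windows and 22.9% of tiles, so its order against the other IDR windows depended on the width. CACGTG was in none of the windows (95% Wilson interval up to 6.11%), against 3.25% of all IDR windows and 2.35% of tiles. The motifs of Ftz-F1, Bicoid, Hunchback, CRE and DREF were in 1 to 8 windows each. Their shares, in this order, were 10.2%, 10.2%, 13.6%, 3.39% and 1.69%. Over all IDR windows they were 5.27%, 6.34%, 9.51%, 4.91% and 5.37%, and over tiles 7.49%, 6.82%, 13.5%, 4.23% and 2.57%.

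**Figure D5:**
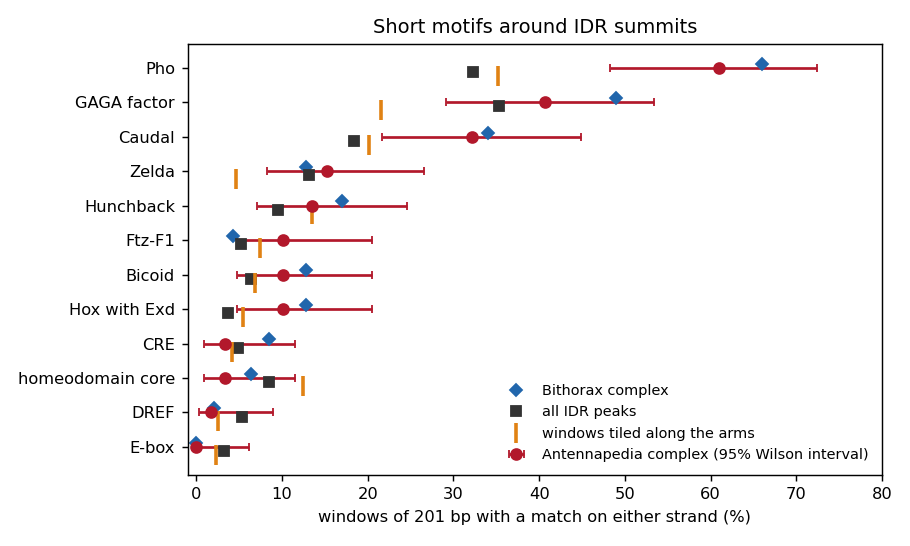
Share of 201-base windows with a match on either strand (horizontal axis, %) for each of the 12 motifs: the 59 windows of the complex with 95% Wilson intervals, the Bithorax complex, all IDR peaks and windows tiled along the arms. The interval of the Pho motif, at 61.0%, lies wholly above the shares of all IDR peaks, of the tiles and of the tiles inside the complex region (35.7%, not drawn); that of the Caudal motif, at 32.2%, lies above the first and the second but holds the share of the tiles inside the region (22.2%, not drawn).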

How the data were processed

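Per the labels and the text files deposited with the samples, the authors made 1 peak list for each of the 3 replicates from its alignment and 1 shared control file, a list from the pooled alignments, and the optimal IDR list from those 4, all on dm6. For each peak the authors deposited a summit offset, a −log10 q value, and a signal value on a scale that is not named. The −log10 q value was 4.16 for every IDR peak, so signal alone ranked them. Which caller and aligner made them was not given in the sources used here. Depth per sample is unknown. The replicates are labelled biological, and nothing was tested on them.

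Gene models came from Ensembl release 115. Signal was used only within a list, as a rank or over the list's median. Counts, overlaps, Wilson and exact Poisson intervals were computed with Python 3.11.15, pandas 2.3.3, numpy 2.4.6 and scipy 1.17.1, and the counting was tested on simulated data. Intervals treat peaks as independent and cover counting error only. All 9 members, other genes of the region with an IDR summit, the 10 strongest peaks, and from each list up to 3 genes with the strongest promoter peak, and those without where 3 or fewer, were named by rule. The members, lists and motifs were chosen with earlier results of these data known. Alternatives concerned the flank, promoter distance, start sites, peak list, overlap, window width and each replicate. Alignments and signal tracks were not used here.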

Additional observations from a re-analysis of the deposited data

How the results depend on the processing

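The count of IDR summits in the complex was 58 to 59 with flanks of 0 to 20 kb and 51 with 1 count per interval. With the stronger 50% of IDR peaks alone it was 35, of which 28 were matched in all replicates, the density was 0.978 per 10 kb, and 1330 protein-coding genes had a promoter peak. With all pooled peaks it was 250, at 6.99 per 10 kb, and 7903 genes had one. These alternatives change the length of the list by construction. Requiring a match in both other replicates, with each replicate left out in turn, gave 50 to 53 summits, 1.40 to 1.48 per 10 kb, 6 members with a promoter peak each time, and 1832 to 2086 genes, against 2566 in the IDR list. The count of members was 6 at 500 and 2000 bp, where 2112 and 3175 of the 13968 protein-coding genes had a promoter peak. It was 4 with 1 start site per gene, which left out Scr and Antp, and 2315 protein-coding genes had one by that rule. Matches in all 3 replicates numbered 37 to 49 under other overlap rules and 58 against the complete lists. Of 24 motif shares at other widths, 11 moved beyond the interval of the main share. No paired analysis was possible because the series has 1 group. Unknown read depth limits what can be said of weak peaks: the lack of an IDR promoter peak at pb, zen2 and bcd does not show absence of binding.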

Other observations

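After the data had been seen, 6-base words were ranked by how often they occurred in the windows of the 4990 IDR peaks outside the complex relative to tiled windows, over the 545 words found in at least 10% of the former windows. The highest was CGCGCA, at 11.9% of the windows of the complex, 12.9% of the other IDR windows and 4.30% of tiles. The second was CAGGTA, the Zelda motif, at 15.3%, 13.1% and 4.57%. The next were GCGCAA, at 13.6%, 19.96% and 7.49%, and AGAGAG, at 11.9%, 19.4% and 7.36%. The last of the 5 was the palindrome TGCGCA, at 15.3%, 10.8% and 4.23%. At least 1 of these 5 words was in 29 of the 59 windows of the complex (49.2%), in 51.0% of the other IDR windows and in 22.4% of tiles, and in 4 of the windows of the 10 strongest peaks of the complex.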
